A study of Saccharomyces cerevisiae with 8 samples.

Results

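The histone genes of the budding yeast Saccharomyces cerevisiae were followed across 4 strain groups during growth on glycerol. Their members were the probe sets, groups of short array probes read together as a transcript, that are annotated to a list of 10 histone genes. The list held HTA1 (YDR225W) and HTA2 (YBL003C) for histone H2A, HTB1 (YDR224C) and HTB2 (YBL002W) for H2B, HHT1 (YBR010W) and HHT2 (YNL031C) for H3, HHF1 (YBR009C) and HHF2 (YNL030W) for H4, HHO1 (YPL127C) for linker histone H1 and HTZ1 (YOL012C) for the variant H2A.Z. Of the 10 genes, 9 had a probe set under their own symbol and HHF2 had none. Together they had 10 of the 5498 probe sets that were paired with 1 yeast gene. The only probe set of HHF1 and the second of HTA2 carry the identifier suffix of probe sets that match several transcripts, so they can also read RNA of the near-identical copies HHF2 and HTA1. These 2 are written HHF1 (shared) and HTA2 (shared), and the 8 probe sets without HHO1 and HTZ1 are called the core histone probe sets. All 10 lay above background on all 8 arrays and were among the 5496 tested.

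Histones H2A, H2B, H3 and H4 form the protein spool around which DNA is wrapped into nucleosomes, H1 binds the linker DNA between them, and H2A.Z replaces H2A in nucleosomes near promoters. In budding yeast the core histone genes lie as neighbouring pairs read in opposite directions, H2A beside H2B and H3 beside H4. In the gene table used here HTA1 and HTB1, HTA2 and HTB2, HHT1 and HHF1, and HHT2 and HHF2 had 0 genes between them. Their transcription is largely confined to S phase, when new chromatin is built, and their messages turn over quickly, whereas HTZ1 is not tied to S phase in this way.

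RNA was measured on 8 expression arrays, 2 per group from separate cultures. BY4741, a common laboratory strain, was the wild type, and A880 is labelled as BY4741 with POP2 deleted, the gene of a CCR4-NOT nuclease subunit that trims the poly(A) tails of messages. The groups A880STM1 and A880STM1K are A880 transformed, per the labels, with STM1, which encodes a ribosome-associated protein, in the unaltered form or as R237K, numbered as in the labels. The promoter, the vector and the number of clones of the transformants are not stated in the labels. All cultures were first grown in 2% glucose until their optical density reached 1, were washed and moved to 2% glycerol for 12 hours and were collected at a density of 0.4 to 0.8, so all groups share the change of carbon source.

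POP2 had a signal of 883 and 814 on the BY4741 arrays and 0.221 and 0.452, below background, on the A880 arrays. It read 181 and 286 on the arrays labelled A880STM1 and 255 and 176 on those labelled A880STM1K, which goes against the deletion that these labels state, so both groups are called by their labels. STM1 read 2043 and 2566 on BY4741, 2960.3 and 3096 on A880, 9441 and 5027 on A880STM1 and 8697 and 8143 on A880STM1K arrays. Replicates were less alike in the transformed groups: the arrays of a group differed by a median absolute log2 value of 0.465 for A880STM1 and 0.388 for A880STM1K, against 0.144 for BY4741 and 0.118 for A880. Array background lay between 5.15 and 8.40 signal units. The haploid-specific genes, 9 genes such as STE18 and FUS3 that haploid cells like BY4741 express, were above background in every group. Their summed signal was 4889 to 5119 on BY4741 and 5764 to 5825 on A880 arrays, 727 to 833 on A880STM1 and 1132 to 1497 on A880STM1K arrays. The 6 a-cell-specific genes, a mating type that BY4741 has, summed to 2912 to 2928 on BY4741, 2742 to 3164 on A880, 618 to 710 on A880STM1 and 797 to 886 on A880STM1K arrays. For 4 alpha-cell-specific genes these ranges were 642 to 721, 440 to 484, 375 to 447 and 856 to 911, and every gene of these lists was above background in every group. Lower haploid-specific and a-cell-specific signal moves with the transformed groups in every comparison below that sets them against A880 or BY4741, and its part in the histone results was not tested.

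**Figure D1:**
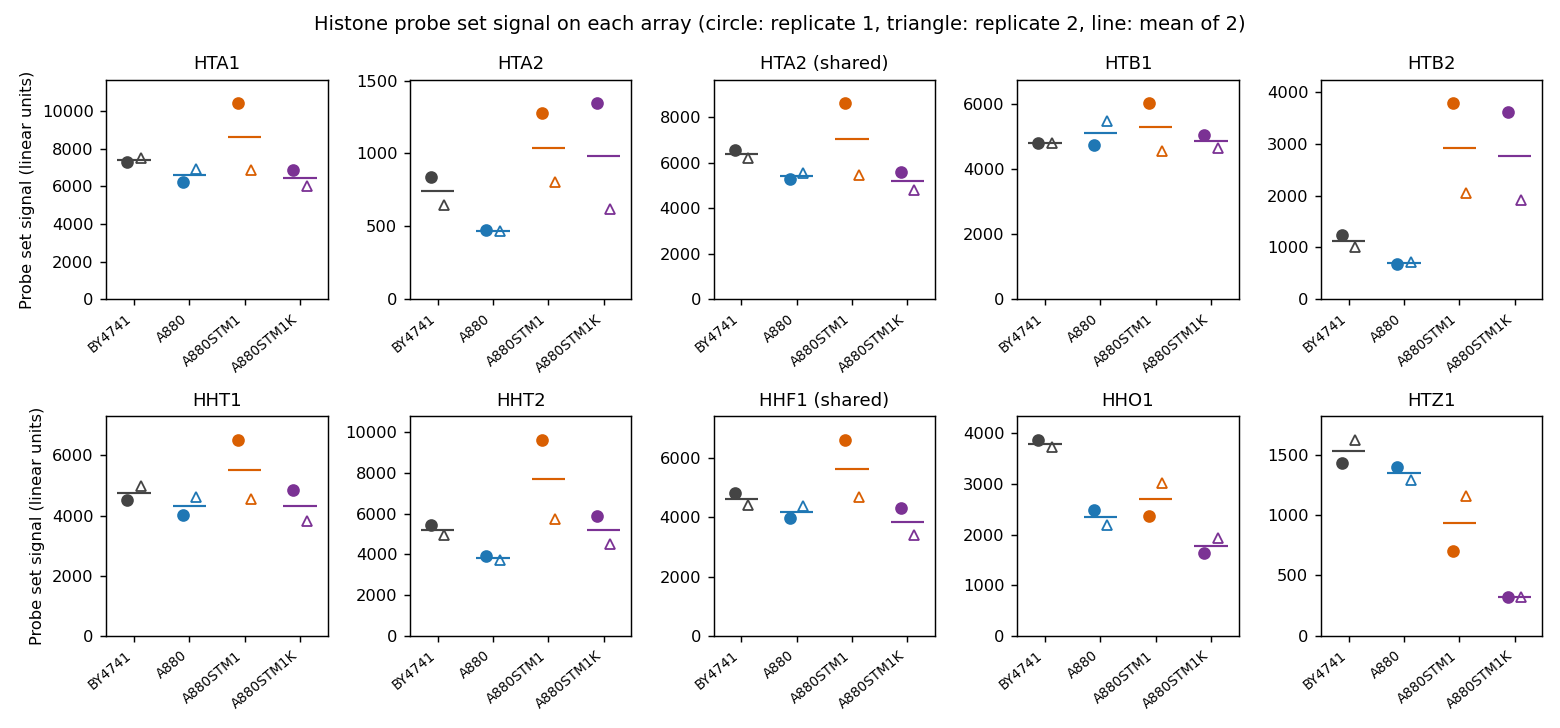
Signal of the 10 histone probe sets on each of the 8 arrays, in linear units with each axis starting at 0 (circle, replicate 1; triangle, replicate 2; line, mean of 2). The HTB2 panel shows the lowest signals on the A880 arrays (681 and 719.6) and all 4 arrays labelled A880STM1 or A880STM1K above both BY4741 arrays, while the HTZ1 panel shows 321 and 324 on the A880STM1K arrays.

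Histone RNA did not move as a block. HTB2, a copy of H2B, was several times higher on the transformed arrays than on A880 arrays, while HTB1, the other copy, was called in no comparison of the values as deposited. HTZ1 fell on the arrays labelled A880STM1K to 21.2% of BY4741 and 35.7% of A880STM1, and HHO1 fell there to 46.8% of BY4741. Changes are log2 differences ± SE from a limma fit over all 8 arrays, and a change was called where the Benjamini-Hochberg adjusted p over all tested probe sets lay below 0.05. In RNA from whole cultures, fewer cells making histone RNA and less of it per cell cannot be told apart.

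For A880 against BY4741, 0 of the 10 histone probe sets were called by limma, beside 13.9% of all tested probe sets (7.71% higher and 6.19% lower), and 1 (HHO1) had an unadjusted p below 0.05. For A880STM1 against A880, 2 of 10 were called, both higher, beside 19.9% of all (6.82% higher and 13.1% lower). For A880STM1K against A880, 1 was called higher and 1 lower, beside 47.1% of all (19.1% higher and 28% lower). The direct comparison of A880STM1K with A880STM1 called 1, which was lower, beside 35% of all (17.9% higher and 17.1% lower). For A880STM1 against BY4741, 1 was called, which was higher, beside 11.7% of all (5.4% higher and 6.3% lower). For A880STM1K against BY4741, 1 was called higher and 2 lower, beside 49.5% of all (21.2% higher and 28.3% lower). Counted over both directions, the called share of histone probe sets was near that of all probe sets or below it in each comparison, and what follows concerns named genes.

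Over all tested probe sets the median was itself shifted, by log2 -0.27 for A880STM1 against A880, by -0.17 for A880STM1K against A880, by -0.24 for A880STM1 against BY4741 and by -0.11 for A880STM1K against BY4741. It was 0.02 for A880 against BY4741 and 0.10 for A880STM1K against A880STM1. A change relative to this median is given where the shift bears on it. The comparisons share the A880 or the BY4741 arrays, so their values for a gene are not independent of each other.

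**Figure D2:**
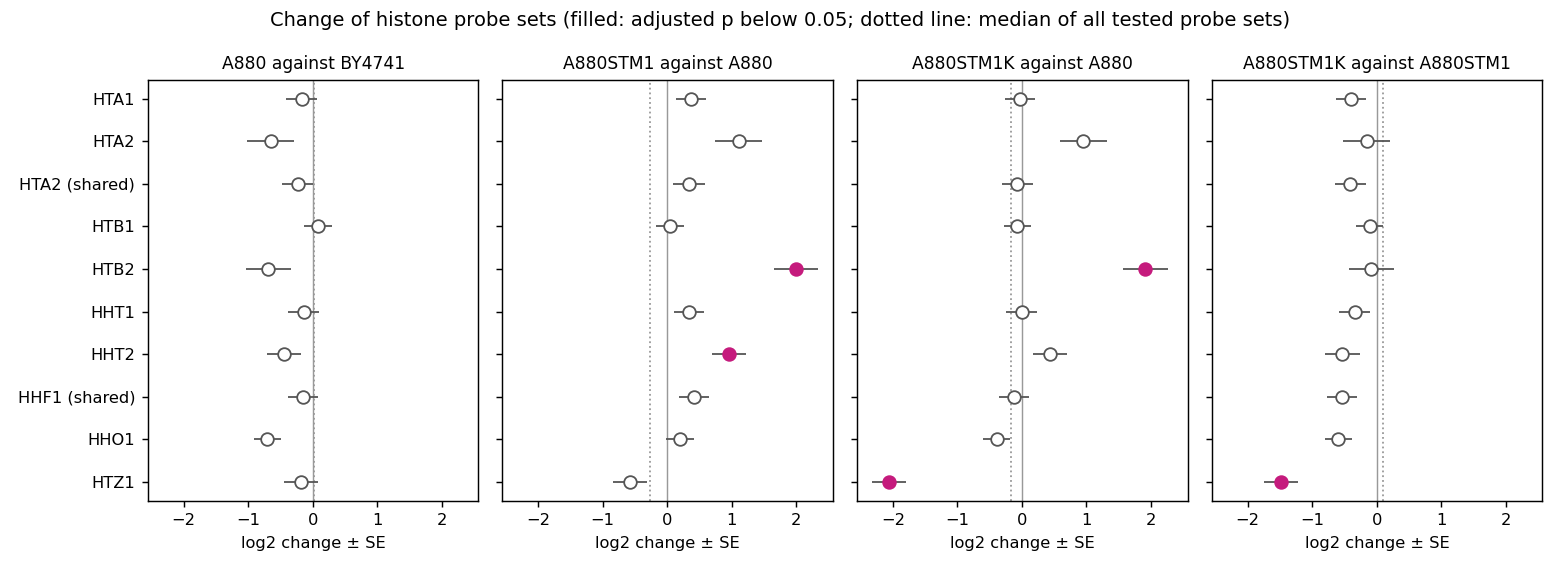
Change of each histone probe set in 4 comparisons, as log2 ± SE of the limma fit (filled points, adjusted p below 0.05; dotted line, median of all tested probe sets). HTB2 and HTZ1 are the filled points farthest from 0, at 1.99 and 1.91 for HTB2 against A880 and at -2.06 for HTZ1 in A880STM1K against A880.

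H2B showed the widest split between gene copies. HTB2 had a signal of 1249 and 1015 on the BY4741 arrays, 681 and 719.6 on A880, 3788 and 2049 on A880STM1 and 3618 and 1920.3 on A880STM1K arrays, replicates 1 and 2 in that order here and below. Both A880 arrays lay under both BY4741 arrays, and all 4 transformed arrays lay above every other array, with replicate 1 well above replicate 2 in both transformed groups. HTB2 rose by log2 1.99 ± 0.34 in A880STM1 against A880, a 3.98-fold difference (adjusted p = 0.00571), and by 1.91 ± 0.34 in A880STM1K against A880, a 3.77-fold difference (adjusted p = 0.00144). Relative to the median of all tested probe sets these changes were 2.27 and 2.08.

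Against BY4741, HTB2 was 2.47-fold higher in A880STM1 (log2 1.31 ± 0.34, adjusted p = 0.0389) and 2.34-fold higher in A880STM1K (log2 1.23 ± 0.34, adjusted p = 0.0132). The A880 arrays were lower than BY4741 by a log2 difference of -0.69 ± 0.34, which was not called (adjusted p = 0.21). Between the transformed groups HTB2 differed by log2 -0.08, with a 95% interval from -0.84 to 0.68, which leaves room for a difference of either sign. Without A880STM1 replicate 1 the change against A880 was log2 1.55 (adjusted p = 0.0675, range over alternatives 0.000337 to 0.0675). The change in A880STM1K against A880 stayed called with any of its 4 arrays left out, with the highest adjusted p at 0.0105. Against BY4741 the call for A880STM1K was lost without A880STM1K replicate 1 (log2 0.77, adjusted p = 0.0986) or BY4741 replicate 2 (log2 1.08, adjusted p = 0.0797), and that for A880STM1 with equal array medians, without the intensity trend, and without either BY4741 array or A880STM1 replicate 1.

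HTB1, whose product is nearly identical to that of HTB2, had 4803 and 4804 on BY4741, 4749.9 and 5483 on A880, 6036 and 4556 on A880STM1 and 5062 and 4671 on A880STM1K arrays. All groups overlapped. The difference from A880 was log2 0.04 (95% interval -0.44 to 0.51) in A880STM1 and -0.07 (-0.55 to 0.41) in A880STM1K, so neither interval reaches the size of the HTB2 change. After quantile normalization limma called HTB1 lower in A880STM1K against A880 (log2 -0.46, adjusted p = 0.00825), beside 53.5% of all probe sets called.

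H2A was read by 3 probe sets. HTA2, which neighbours HTB2, had 837 and 646 on BY4741, 472 and 468 on A880, 1277 and 803 on A880STM1 and 1345 and 616 on A880STM1K arrays. The A880 arrays were the lowest of all 8 and did not overlap with any other group. Taken pair by pair, most tested probe sets also kept A880 apart from each of these groups. The HTA2 difference from A880 was log2 1.11 ± 0.36 in A880STM1 (adjusted p = 0.0537) and 0.95 ± 0.36 in A880STM1K (adjusted p = 0.0513), just outside the threshold in both. It passed with quantile normalization, with equal array medians and without replicate 2 of the transformed group. In A880STM1 the HTA2 difference also passed with only the 4 arrays compared (limma, adjusted p = 0.0423). In A880STM1K it moved to log2 0.39 without A880STM1K replicate 1 and was not called.

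HTA1, which neighbours HTB1, had 7309.96 and 7511 on BY4741, 6252.5 and 6915 on A880, 10429.6 and 6888 on A880STM1 and 6891 and 6006 on A880STM1K arrays. A880STM1 replicate 1 stood alone, and the other 7 arrays lay between 6006 and 7511. The HTA1 signal was at percentile 98.3 or higher on every array and that of HTB1 at 95.7 or higher. HTB2 and HTA2 went down to percentiles 46.6 and 31.9 on A880 arrays. Saturation was not tested for any probe set. HTA2 (shared) had 6574 and 6197 on BY4741, 5302 and 5563 on A880, 8615 and 5446 on A880STM1 and 5578 and 4792 on A880STM1K arrays. It moved with HTA1 rather than with the other probe set of HTA2: over the 8 arrays its Pearson correlation on the log2 scale was 0.973 with HTA1 and 0.565 with HTA2, as a description of these arrays, which share their scaling. None of the HTA1 and HTA2 (shared) differences was called in the fit of all 8 arrays as deposited. Quantile normalization called both lower in A880STM1K against each other group.

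For H3, HHT2 had 5449 and 4935 on BY4741, 3932 and 3709 on A880, 9623 and 5750.3 on A880STM1 and 5875 and 4521 on A880STM1K arrays. The A880 arrays were again the lowest, and both A880STM1 arrays lay above both BY4741 arrays. HHT2 rose by log2 0.96 ± 0.26 in A880STM1 against A880, a 1.95-fold difference (adjusted p = 0.0317). This call was lost with equal array medians, in a fit of only the 4 arrays compared, and without A880 replicate 1, A880 replicate 2 or A880STM1 replicate 1, where the change was log2 0.59 (adjusted p = 0.129). In A880STM1K against A880 the HHT2 difference was log2 0.43 ± 0.26 (adjusted p = 0.198), and the direct difference between the transformed groups was -0.53 ± 0.26 (adjusted p = 0.145). That direct difference was called with quantile normalization (log2 -0.57, adjusted p = 0.0163) and without A880STM1 replicate 2 (log2 -0.90, adjusted p = 0.0179).

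HHT1, the other H3 gene, had 4516 and 4969.6 on BY4741, 4007 and 4622 on A880, 6512 and 4533 on A880STM1 and 4835 and 3824 on A880STM1K arrays. HHF1 (shared), the only reading of H4, had 4824 and 4417 on BY4741, 3969.9 and 4382 on A880, 6607 and 4675 on A880STM1 and 4299.9 and 3397 on A880STM1K arrays. In both, A880STM1 replicate 1 was the highest array and A880STM1K replicate 2 the lowest. No difference of HHT1 or HHF1 (shared) was called, and the smallest adjusted p was 0.0973, for HHF1 (shared) in A880STM1K against A880STM1 at log2 -0.54 ± 0.23. Quantile normalization called HHF1 (shared) lower in A880STM1K against each other group, and HHT1 lower there against A880 and BY4741.

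The gene copies were also set against each other within each array, as a description. The log ratio of the 2 H2B probe sets within an array, set to 0 at its BY4741 mean, was -0.71 and -0.84 for HTB2 relative to HTB1 on the A880 arrays, 1.42 and 0.94 on A880STM1 and 1.61 and 0.81 on A880STM1K arrays. Every A880 array was below and every transformed array above the BY4741 arrays, which stood at 0.15 and -0.15. A ratio within an array does not move when the whole array is multiplied by a factor. It can move under quantile normalization, which changed bright and dimmer probe sets by unlike amounts. In A880STM1 against A880, HTB1 went from log2 0.04 to -0.35 and HTB2 from 1.99 to 2.05. HTA1 went there from 0.37 to 0.05 and HTA2 from 1.11 to 1.41. The ratios given here are those of the values as deposited. For HTA2 relative to HTA1 the means were -0.47 in A880, 0.27 in A880STM1 and 0.51 in A880STM1K, but A880STM1K replicate 2, at 0.05, fell among the BY4741 arrays. HHT2 relative to HHT1 gave means of -0.30, 0.32 and 0.13 in the same order, with A880STM1K replicate 2, at 0.11, also among the BY4741 arrays. HTA2 (shared) relative to HTA1 stayed between -0.12 and 0.06 on all 8 arrays. The ratios were not tested.

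**Figure D3:**
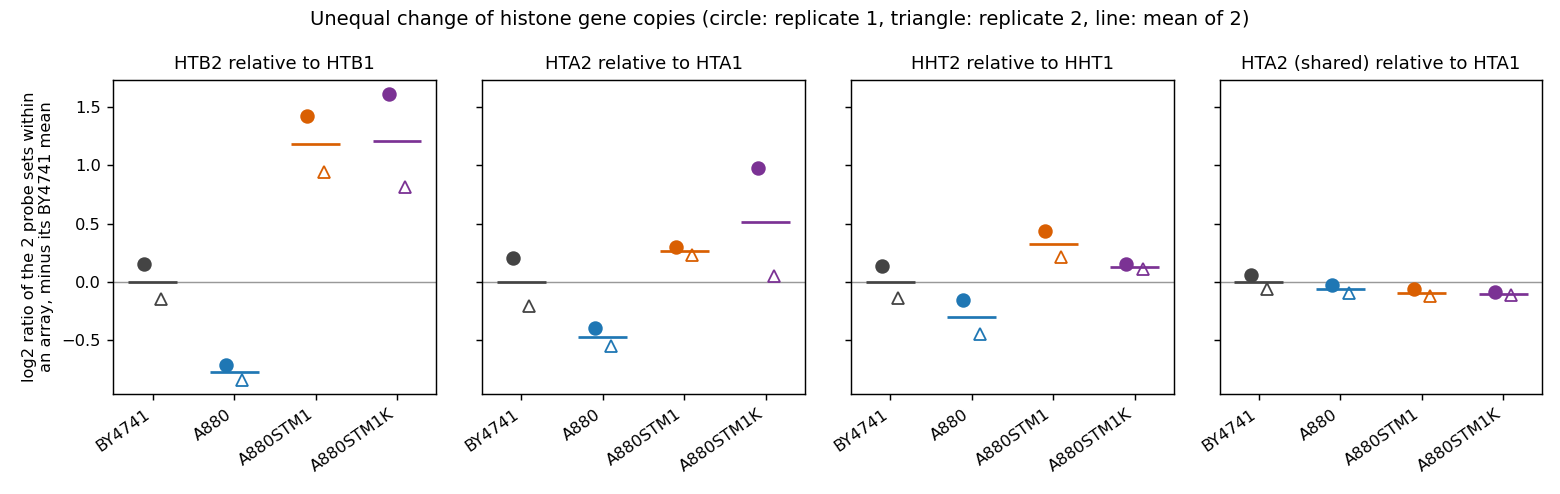
Log2 ratio of 2 histone probe sets within each array, minus its BY4741 mean, for the H2B, H2A and H3 gene copies and for the shared H2A probe set (circle, replicate 1; triangle, replicate 2; line, mean of 2). HTB2 relative to HTB1 runs from -0.84 on an A880 array to 1.61 on an A880STM1K array, while HTA2 (shared) relative to HTA1 stays near 0.

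HTB2 also parted from its neighbour HTA2 in the transformed groups. HTB2 relative to HTA2 was at -0.04 in A880 but at 0.85 in A880STM1 and 0.92 in A880STM1K, and all 4 transformed arrays lay between 0.74 and 1.03. The neighbours HTA1 and HTB1 kept a relative value between -0.16 and 0.29 on all arrays. Across the 8 arrays the log2 signals of HTA2 and HTB2 correlated at 0.916 and those of HTB1 and HTB2 at 0.304.

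HHO1, linker histone H1, had 3872 and 3726 on BY4741, 2481 and 2199 on A880, 2378 and 3016 on A880STM1 and 1629.8 and 1939 on A880STM1K arrays. Both BY4741 arrays were above all others and both A880STM1K arrays below all others, while A880 and A880STM1 overlapped. HHO1 fell to 46.8% of BY4741 in A880STM1K (log2 -1.10 ± 0.21, adjusted p = 0.00196) and kept that call in each of the 13 alternatives tried. The A880 arrays were lower than BY4741 by log2 -0.70 ± 0.21 (adjusted p = 0.0534). That difference passed the threshold with quantile normalization, equal array medians and only the 4 arrays compared, and had adjusted p of at least 0.223 with any of its 4 arrays left out. Between the transformed groups the difference was log2 -0.59 ± 0.21 (adjusted p = 0.0541).

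HTZ1, the H2A.Z gene, gave the largest change of any histone probe set in the values as deposited. With equal array medians, or relative to the median of all tested probe sets, HTB2 in A880STM1 against A880 was farther from 0, at log2 2.38 and 2.27. HTZ1 had 1431 and 1621 on BY4741, 1399 and 1293 on A880, 702 and 1160.2 on A880STM1 and 321 and 324 on A880STM1K arrays. The A880STM1K arrays nearly coincided and lay below every other array, and the A880STM1 arrays lay between them and A880. HTZ1 fell by log2 -2.06 ± 0.26 in A880STM1K against A880 (adjusted p = 0.000234), to 24.0% of the A880 level. Against BY4741 it fell by log2 -2.24 ± 0.26 (adjusted p = 0.000104). The direct comparison with A880STM1 gave log2 -1.48 ± 0.26 (adjusted p = 0.00188). These 3 calls held in each of the 13 alternatives.

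In A880STM1 the HTZ1 difference was log2 -0.58 ± 0.26 against A880 (adjusted p = 0.131) and -0.76 ± 0.26 against BY4741 (adjusted p = 0.0795). Neither was called, and both passed without A880STM1 replicate 2. Relative to HTA1, HTZ1 was at -0.01 in A880, -0.95 in A880STM1 and -2.04 in A880STM1K, with -1.61 and -0.29 on the A880STM1 arrays.

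Scaling decided the direction of the core histones as a group in some comparisons. For A880 against BY4741 their median change was log2 -0.20 as deposited, with 7 of 8 below 0, -0.02 after quantile normalization, with 4 of 8 above 0, and -0.32 with equal array medians. For A880STM1 against A880 it was 0.39, with all 8 above 0, 0.03, with 5 of 8 above 0, and 0.78 in the same order. For A880STM1 against BY4741 it was 0.23, 0.04 and 0.50. For A880STM1K against A880 the median was -0.02 as deposited, -0.41 after quantile normalization, with 2 called higher and 5 lower, and 0.33 with equal array medians, with 2 called higher. For A880STM1K against BY4741 the 3 scalings gave -0.07, -0.31 and 0.16. For A880STM1K against A880STM1 the median was -0.37, -0.36 and -0.41, with all 8 below 0 under each. HTB2 kept its direction under all 3 scalings in every comparison, and HTZ1 and HHO1 kept theirs against BY4741.

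Replicate 1 was above replicate 2 for all 8 core histone probe sets in both transformed groups. The log2 difference between replicates ran from 0.41 to 0.89 in A880STM1 and from 0.12 to 1.13 in A880STM1K. It was above 0 for 5 of 8 in BY4741 and for 2 of 8 in A880. HHO1 and HTZ1 went the other way in A880STM1, where replicate 1 was lower by log2 -0.34 and -0.73. The A880STM1 arrays also differed as wholes. Their highest signal was 12284.5 and 6918 and their median over tested probe sets 485 and 628, replicates 1 and 2. On the A880STM1K arrays these were 10682 and 9328, and 592 and 543. The part of this in the histone difference was not tested. The median of 21 genes of S phase and DNA replication, set to the BY4741 means, was log2 -0.41 and 0.12 on the A880STM1 arrays and -0.22 and -1.02 on the A880STM1K arrays, replicates 1 and 2, so its replicates differed in opposite directions in the 2 groups. The part of the S-phase genes in the replicate difference of the histones was not tested.

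Those S-phase genes, listed as the cell cycle class in which core histone RNA is normally made, were set beside the core histones. Their summed signal was 10842 to 11891 on BY4741, 18331 to 19392 on A880, 8650.2 to 12119 on A880STM1 and 5131 to 8145 on A880STM1K arrays. For A880 against BY4741 their median change was log2 0.73, beside 0.02 for all tested probe sets, and 4 of 21 rose, beside 7.71% of all. That count was 16 with only the 4 arrays compared. It dropped with any array left out, as did the share of all probe sets called. In the fit over all 8 arrays no core histone was called for A880 against BY4741, and the core histone median was -0.20. In the fit of only the 4 arrays compared, which called 54.4% of all probe sets, 4 core histone probe sets were called lower (HTA2, HTA2 (shared), HTB2 and HHT2), and after quantile normalization the core median was -0.02. For A880STM1K against A880, 15 of 21 fell, 10 without A880 replicate 1, and the median was -1.45, beside -0.17 for all tested probe sets. RAD27, a nuclease of lagging-strand synthesis, fell by log2 -2.96 ± 0.31 (adjusted p = 7.25e-05). SMC1, a cohesin subunit, fell by log2 -2.66 ± 0.28 (adjusted p = 8.76e-05), and RFA3, a subunit of the single-strand binding factor, by -2.40 ± 0.25 (adjusted p = 7.18e-05). For A880STM1 against A880, 8 of 21 fell, a count that dropped to 1 with equal array medians and to 0 without A880 replicate 1. The counts of this and the following lists stand beside 28% of all probe sets lower and 19.1% higher in A880STM1K against A880, and 13.1% lower in A880STM1 against A880. Without A880 replicate 1 the share of all probe sets called dropped as well, to 27.9% and 3.26%. The difference between the S-phase genes and the histones was not tested.

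**Figure D4:**
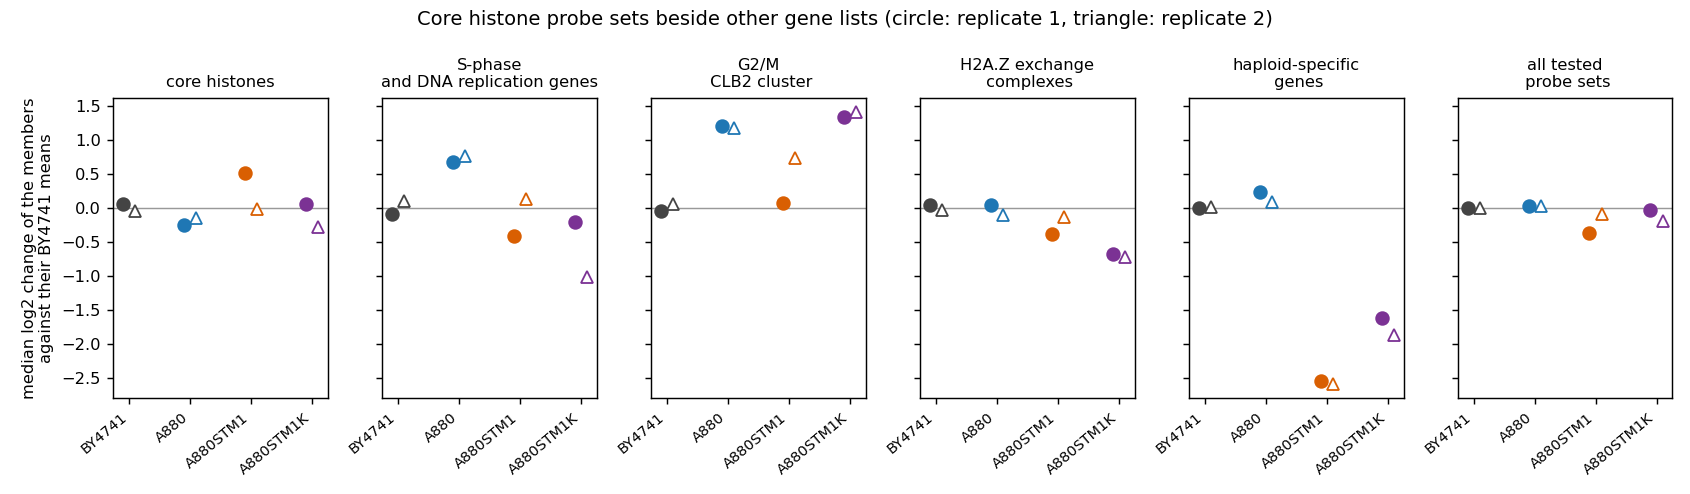
Median log2 change, against the BY4741 means, of the core histone probe sets and of 4 other gene lists on each array, with the median of all tested probe sets at the right (circle, replicate 1; triangle, replicate 2). On the A880 arrays the S-phase list stands at 0.67 and 0.75 and the core histones at -0.26 and -0.15.

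The complexes that place H2A.Z were read beside HTZ1. Of 14 genes of the SWR1 complex and its partners, 7 fell and none rose in A880STM1K against A880, with a median of log2 -0.62, with equal array medians 6 fell and 2 rose, and without A880 replicate 1 only 4 fell. SWR1, the motor subunit that puts H2A.Z into nucleosomes, had 1547 and 1478 on BY4741, 879 and 736 on A880, 625 and 893 on A880STM1 and 158 and 255 on A880STM1K arrays. The A880STM1K arrays lay below all others, as they did for HTZ1. SWR1 fell by log2 -2.01 ± 0.29 against A880 (adjusted p = 0.000464) and by -1.90 ± 0.29 against A880STM1 (adjusted p = 0.000863). SWC3 and SWC5, further subunits, fell by log2 -2.77 ± 0.28 and -2.70 ± 0.37 in A880STM1K against A880 (larger adjusted p = 0.000338). SWC3 had 411 and 392 on BY4741, 1229 and 1087 on A880 and 207 and 139 on A880STM1K arrays. SWC5 had 388 and 483, 786 and 883, and 95.8 and 171 in the same order. For each gene both A880 arrays stood above both BY4741 arrays. In A880STM1K against BY4741 the changes were smaller, at log2 -1.25 for SWC3 and -1.76 for SWC5. CHZ1, a chaperone of H2A.Z and H2B, had 2892 and 3042 on BY4741, 2878 and 2984 on A880, 2045 and 2563 on A880STM1 and 636 and 866 on A880STM1K arrays, and fell by log2 -1.98 ± 0.23 in A880STM1K against A880 (adjusted p = 0.000128). The calls in A880STM1K against A880 of SWR1, SWC3, SWC5 and CHZ1 held in each of the 13 alternatives.

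Among 13 histone chaperones and importers, CHZ1 included, 8 fell in A880STM1K against A880, or 5 without A880 replicate 1. In A880STM1 against A880 6 fell, which became 2 with equal array medians and 0 without A880 replicate 1. HIF1, a nuclear chaperone of H3 and H4, fell by log2 -1.98 ± 0.30 in A880STM1K against A880 (adjusted p = 0.000572). In A880 against BY4741 the list had a median of log2 0.33, with 11 of 13 above 0 and 1 called higher, beside 7.71% of all probe sets. That 1 was VPS75, a chaperone that works with the acetyltransferase Rtt109. It had 97.8 and 127 on BY4741, 352 and 501 on A880, 399 and 269 on A880STM1 and 524 and 609.5 on A880STM1K arrays. All arrays of the other groups lay above both BY4741 arrays, and VPS75 rose by log2 1.92 ± 0.31 in A880 against BY4741 (adjusted p = 0.00465), a call lost without BY4741 replicate 1 or A880 replicate 2 (largest adjusted p = 0.0713).

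Of 11 regulators of histone transcription, none was called in A880 against BY4741, beside 13.9% of all probe sets. There limma gave the list a median of log2 -0.01. HIR1 and HPC2, subunits of the HIR complex that represses the histone gene pairs other than HTA2 and HTB2, fell in A880STM1 against A880 by log2 -0.98 ± 0.27 and -0.90 ± 0.27 (larger adjusted p = 0.0421). HIR1 and HPC2 were the only genes of the list called there, 2 of 11, beside 13.1% of all probe sets lower. Both calls were lost when either A880 array or A880STM1 replicate 1 was left out. Quantile normalization removed both as well, as did a fit of just the 4 arrays of the comparison. The HPC2 call was lost under equal array medians too. The median of the list was -0.46 as deposited and -0.0022 under quantile normalization. Of 7 genes of histone message decay and control of excess histone, 3 fell in A880STM1K against A880, or 1 without A880 replicate 1. RAD53, the checkpoint kinase that also triggers breakdown of surplus histones, fell by log2 -3.25 ± 0.38 (adjusted p = 0.000141), and PAP2, a nuclear poly(A) polymerase, by -1.29 ± 0.27 (adjusted p = 0.00363, a call lost without A880 replicate 1). Of the 7 changes there, 3 were above 0. PAT1, of the same list, had a mean of 1613 on A880 and 2121 on A880STM1K arrays and was not called there. PAT1 was called higher in A880STM1K against A880STM1 (log2 0.91) and BY4741 (log2 0.96). The first of these calls was lost with only the 4 arrays compared.

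CSE4, the centromeric H3 variant, had 1288 and 1083 on BY4741, 876 and 759 on A880, 618 and 655 on A880STM1 and 424 and 261 on A880STM1K arrays. Its signal was lower in each group in turn, without overlap, from BY4741 through A880 and A880STM1 to A880STM1K. Taken step by step, 37.7%, 47.9% and 27.1% of all tested probe sets were also lower without overlap. Here limma called A880STM1K against A880 at log2 -1.29 ± 0.27 (adjusted p = 0.00336) and against A880STM1 at -0.93 ± 0.27 (adjusted p = 0.023). The call against A880STM1 was lost without either A880STM1 array, without A880STM1K replicate 2 and with only the 4 arrays compared (highest adjusted p = 0.128). PSH1, the ligase that removes surplus Cse4 protein, fell by log2 -1.66 ± 0.28 in A880STM1K against A880 (adjusted p = 0.000998). Among 21 histone-modifying enzymes, 7 fell and 1 rose in that comparison, near the 28% of all probe sets lower and below the 19.1% higher, and 4 fell and 4 rose with equal array medians. ESA1, the acetyltransferase of H4 and H2A.Z, fell by log2 -1.14 ± 0.23 against A880 (adjusted p = 0.00257).

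The genes whose log2 signal ran most like the mean of the core histone probe sets over the 8 arrays were YOL155W-A (Pearson r = 0.953), GPA2, a G protein subunit (0.947), SPI1, a cell wall protein (0.931), RPL36B, a ribosomal protein (0.931), and RPS10B, another ribosomal protein read here by a shared probe set (0.925). Only 10 tested probe sets, 0.182%, reached 0.9 with that mean. For HHO1 the most alike were NBL1 (0.994), of the chromosomal passenger complex, YAP5 (0.99), a transcription factor, and STE13 (0.989), a peptidase that processes alpha factor, among 188 probe sets, 3.43%, at 0.9 or more. HTZ1 was most like NPP1 (0.996), a nucleotide pyrophosphatase, YNG1 (0.996), a subunit of a histone acetyltransferase complex, and DBP1 (0.994), an RNA helicase, with 607 probe sets, 11.1%, at 0.9 or more. These coefficients describe 8 arrays of 4 groups that share their scaling.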

How the data were processed

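Per the labels, 10 µg of total RNA per culture was labelled and hybridised to 8 Affymetrix arrays. The deposited table holds linear intensity per probe set, for which the submitters' processing notes name MAS5, and the 2% trimmed mean lay between 500.15 and 500.26 on every array. No other version, setting or build is given in the sources used here. Every fit used that deposited intensity after taking log2. The background of an array was percentile 90 of its probe sets for another yeast species, and the 5496 probe sets above it on at least 2 arrays were tested. The limma package 3.58.1 (R 4.3.3) fitted group means over all 8 arrays, with eBayes moderation by an intensity trend on 4 residual and a median of 6.56 prior degrees of freedom, and 6 contrasts were adjusted by Benjamini-Hochberg. The code was tested on simulated data. Symbols and neighbours came from the RefSeq gene table of assembly R64, without its coordinates, and 12 symbols were updated.

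The members and the 13 gene lists were chosen with earlier results of these data known. By the rule for named genes, the text names all histones, POP2 and STM1, per list the 3 called genes of smallest p at most, the 5 genes most like the core histones and the 3 most like HHO1 and HTZ1. Lists were read with 1 probe set per gene. As alternatives, arrays were quantile normalized, set to equal medians, given a pseudocount of 16 or a floor at background, filtered less or more strictly, fitted without the trend, with a block for the replicate number, in fours as compared or with each array left out, and read at stricter thresholds or over unshared probe sets. Precision is limited by 2 arrays per group, from separate cultures per the labels. Sequences, raw scans and probe positions were not analysed here.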

Additional observations from a re-analysis of the deposited data

Results flagged for a closer look

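The HTZ1 difference from A880 was not the same in the transformed groups: it was larger in A880STM1K than in A880STM1 by log2 -1.48 ± 0.26 (limma, adjusted p = 0.00188), which is the direct contrast between those groups. HTZ1 read 321 and 324 on the A880STM1K arrays and 702 and 1160.2 on the A880STM1 arrays, so all arrays showed the direction. POP2 goes against the labels of both groups.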

How the results depend on the processing

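Of 60 histone changes, 9 were called, and none of these changed sign under 13 alternatives. Calls of HTB2 and HTZ1 in A880STM1K against A880, of HTZ1 in A880STM1K against A880STM1 and BY4741 and of HHO1 in A880STM1K against BY4741 were kept under all 13, and the other 4 were lost under at least 1. Of the 51 changes not called, 30 were called under at least 1 alternative and 25 changed sign under at least 1. For A880 against BY4741 the count went from 0 to 1 with quantile normalization or equal array medians and to 5 with only the 4 arrays compared, where 54.4% of all probe sets were called, and stayed at 0 with any array left out, where 1.73% to 2.98% were. For A880STM1 against A880 it went from 2 to 1 at adjusted p below 0.01 or with a 2-fold minimum, and from 0 (without A880STM1 replicate 1) to 7 (without A880STM1 replicate 2) with an array left out, while the share of all probe sets called was 5.04% and 41.5%. For A880STM1K against A880 it went from 2 to 9 with quantile normalization (2 higher, 7 lower) and was 2 to 3 with an array left out. For A880STM1K against A880STM1 it went from 1 to 6 with quantile normalization and was 1 to 5 with an array left out, the 5 without A880STM1 replicate 2, beside 32.7% of all. For A880STM1 against BY4741 it went from 1 to 2 with quantile normalization and to 0 with equal array medians, without the intensity trend or at adjusted p below 0.01, and was 0 to 4 with an array left out, the 4 without A880STM1 replicate 2, beside 35.5% of all and 1.76% to 1.87% without another array. For A880STM1K against BY4741 it went from 3 to 7 with quantile normalization and was 2 to 4 with an array left out. The cause of these moves was not tested. Under quantile normalization the share of all probe sets called was 25.2%, 19.4%, 53.5%, 42.4%, 17% and 55.9% for the comparisons in that order. With the replicate number as a block the histone counts were 1, 3, 3, 1, 1 and 3 in the same order. The share of all probe sets called was then 18.1%, 25%, 50.7%, 38.4%, 17.6% and 51.7%. The block added calls of HHO1 in A880 against BY4741 (adjusted p = 0.0486) and of HTA2 in A880STM1 and A880STM1K against A880 (0.0155 and 0.0129). The labels do not say that a number marks a shared batch, so the main fit took the numbers as names. The replicate deviations of same-numbered arrays correlated at 0.037 to 0.287 between groups, which does not settle whether they share a batch. Over all probe sets, 424 rose and 340 fell in A880 against BY4741, which became 723 and 660 under quantile normalization, 413 and 554 under equal medians, or 1629 and 1363 in a fit of the 4 arrays compared. For A880STM1 against A880, 375 rose and 719 fell, which became 547 and 521 under quantile normalization, or 630 and 321 under equal medians. For A880STM1K against A880, 1051 rose and 1538 fell, or 1610 and 1099 under equal medians. Of 128 called changes of named list genes, 72 kept their call under all alternatives and none reversed.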

Other observations

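Genes of other cell cycle stages were read as a background to the core histones. Of 10 tested genes of the G2/M CLB2 cluster, which are made when cells enter mitosis, 4 rose in A880 against BY4741, beside 7.71% of all probe sets. Their median was log2 1.19 beside 0.02 for all tested probe sets. That count dropped with any array left out, as did the share of all probe sets called. In A880STM1K against BY4741, 9 of 10 rose (limma, median log2 1.41, all 10 above 0), beside 21.2% of all probe sets. Fewer rose without BY4741 replicate 2, where fewer of all probe sets were called as well. KIN3, a mitotic kinase, had 82.4 and 94.3 on BY4741, 389 and 300.1 on A880, 122 and 208 on A880STM1 and 359 and 471 on A880STM1K arrays. The A880 and A880STM1K arrays lay above those of the other groups, and KIN3 rose by log2 2.22 ± 0.34 in A880STM1K against BY4741 (limma, adjusted p = 0.000473). BUD4, which marks the bud site, rose there by log2 2.13 ± 0.30 (limma, adjusted p = 0.000276).

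Of 8 genes normally made between mitosis and G1, 3 rose and 1 fell in A880STM1K against A880, beside 19.1% of all probe sets higher and 28% lower. CDC6, a replication licensing factor, was the one that fell, by log2 -2.80 ± 0.31 (limma, adjusted p = 0.00011), and DSE2, a daughter-cell wall enzyme, rose by log2 1.57 ± 0.32 (limma, adjusted p = 0.00296). Among 4 G1 cyclins 1 fell in that comparison, beside 28% of all probe sets, PCL1 at log2 -1.64 ± 0.53 (limma, adjusted p = 0.0267), a call lost with equal array medians and without A880 replicate 2 or A880STM1K replicate 1. Of 6 a-cell-specific genes, 4 fell in A880STM1K against A880, among them the a-factor gene MFA1 by log2 -3.30 ± 0.37 (limma, adjusted p = 0.000117). Of 4 alpha-cell-specific genes, 3 rose there, among them the alpha-agglutinin gene SAG1 by log2 1.30 ± 0.26 (limma, adjusted p = 0.00259). The mean signal of SAG1 was 371 on BY4741, 174 on A880 and 427 on A880STM1K arrays, so BY4741 also stood above A880. The histone counts of these comparisons were not tested against those of the lists.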
